A study of Mus musculus with 11 samples.

Results

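The nuclei described here are the neurons of the authors' cluster 1 in single-nucleus RNA-seq of mouse brain. They were taken from the deposited cell table as the nuclei with the predicted class Neurons and the cluster number 1. There were 22208 such nuclei among 76211 neurons and 110304 nuclei in all. Cluster 1 held 22264 nuclei under every class name, so nearly all of it was called neuronal. The rule used clusters and class names, and none of the comparisons between dosing groups.

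All animals carried a human transferrin receptor knock-in in the homozygous state (hTfR KI HOM), received 4 weekly intravenous doses and were sampled 72 hours after the last dose. ATV:BACE1, given at 57 mg/kg by its label, was the control: it carries the transferrin receptor binding part and no antisense oligonucleotide (ASO), although the design text may give it 60 mg/kg. OTV:Malat1 at 60 mg/kg joins a Malat1 ASO to a molecule that binds the receptor, and nonTV:Malat1 at 60 mg/kg joins the ASO to a molecule without that binding. Malat1 ASO was the free oligonucleotide at 2.5 mg/kg. The first 3 groups had libraries numbered replicate 1, 4 and 5, and Malat1 ASO had replicates 1 and 5; its replicate 4 is not analysed here. Replicate 1 was female and 2.33 months old, replicate 4 male and 2.57 months, and replicate 5 male and 2.33 months. The deposited batch followed the replicate number, so batch, sex and age cannot be told apart. The labels call the brain region Posterior, whereas the deposited cell table calls the tissue cortex and the strain C57BL/6J; nuclei came from frozen tissue.

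Malat1 is an abundant long non-coding RNA that stays in the nucleus, and it is therefore well sampled in nuclei. An ASO that pairs with an RNA can direct RNase H, an enzyme that cuts RNA paired with DNA, to cut it. Blood vessels of the brain keep large molecules out, and the transferrin receptor on endothelial cells carries bound cargo across; neurons carry this receptor too. Malat1 lies at chr19:5795690-5802672 on the minus strand (GRCm38, GENCODE vM21, ENSMUSG00000092341.3), and the annotation gives Malat1-201 as a lincRNA of 1 exon. The data ask in which of these neurons, and after which molecule, the target RNA was lower.

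Each library contributed 1521 to 3283 cluster 1 neurons and 6346834 to 8803325 UMIs (unique molecular identifiers, each counting 1 captured RNA molecule), with a median of 2079 to 4441 UMIs per nucleus. The median mitochondrial share was 0.256% to 0.300%. The authors had called 3.003% of these nuclei doublets, and they were kept. Of the barcodes, 73 occurred in more than 1 library, which touched 146 nuclei (0.657%). Nothing in the labels says more of how far replicates are separate, so the tests below take the library as the unit. The edgeR, DESeq2 and limma p-values rest on a spread between libraries that is estimated partly from other genes. A very small p-value therefore does not measure the spread of Malat1 alone. The SE given with edgeR was derived from the same test, as the absolute log2 change over the square root of its F statistic. It therefore carries the same shared spread.

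The cluster 1 neurons were a mixed population, with Gad1 or Gad2 RNA in more nuclei than Slc17a6 or Slc17a7 RNA. GABAergic neurons release the inhibitory transmitter GABA, which Gad1 and Gad2 synthesize, and glutamatergic neurons load glutamate into vesicles with Slc17a7 in cortex and hippocampus or Slc17a6 in thalamus and brainstem. Gad1 stood at 117 CPM (a gene's counts scaled to the same total in every sum) and Gad2 at 155 CPM in the summed cluster 1 neurons, against 20.2 and 24.3 CPM in the neurons of cluster 0. Slc17a6 stood at 64.3 CPM, against 18.5 CPM in cluster 0. Gad1, Gad2 and Slc17a6 were thus above their level in cluster 0, the largest neuronal cluster. They stood at 103, 123 and 47.1 CPM in the neurons of cluster 9 and at 104, 135 and 10.7 CPM in those of cluster 2. Their levels were therefore not particular to cluster 1.

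The main cortical glutamatergic markers were low, though not all cortical layer markers. Slc17a7 stood at 26.8 CPM in cluster 1 and 156 CPM in cluster 0, and below the 51.2 CPM found in oligodendrocytes, which should lack it. Camk2a, a kinase abundant in forebrain excitatory neurons, stood at 298 CPM against 639 CPM. Among sub-clusters Slc17a7 was above the oligodendrocyte level in 8, 11, 12 and 16, at 63.6 to 119.9 CPM, and nuclei of the 2 classes differed in depth, so this level alone does not set the background. Some layer markers were above cluster 0 and others below. Il1rapl2 of the layer 4/5 list stood at 554 CPM against 361 CPM, and Tshz2 and Vwc2l of the layer 5/6 list at 391 and 143 CPM against 244 and 62.7 CPM. Whrn of the first list stood at 39.5 CPM against 18.5 CPM. Rorb and Rspo1 of that list stood lower than in cluster 0, at 188 and 5.77 CPM against 264 and 13.2 CPM, as did Sla2 of the layer 5/6 list, at 0.635 against 1.23 CPM.

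Some markers of interneurons and thalamus were above both cluster 0 and oligodendrocytes. Adarb2, found in interneurons that arise in the caudal ganglionic eminence, stood at 1676 CPM against 299 CPM in cluster 0 and 188 CPM in oligodendrocytes. The non-coding RNA Dlx6os1, from the locus of a forebrain GABAergic factor, stood at 116 CPM against 13.2 and 8.93 CPM. Lef1, a factor high in thalamic neurons, stood at 123 CPM against 17.2 and 6.62 CPM. Tcf7l2, another such factor, stood at 174 CPM against 29.1 CPM in cluster 0, but at 205 CPM in oligodendrocytes and 420 CPM in astrocytes. The neurons of cluster 9 were near these levels of cluster 1, with Adarb2 at 1456, Dlx6os1 at 98.6, Lef1 at 113 and Tcf7l2 at 177 CPM. Of the 10 GABAergic markers 5 were below their oligodendrocyte level: Slc32a1, Pvalb, Sst, Vip and Lamp5. Drd2, the dopamine receptor of striatal medium spiny neurons, stood at 11.6 CPM here and 130 CPM in cluster 2. Pan-neuronal Meg3 stood at 10690 CPM, against 581 CPM in oligodendrocytes. These levels describe clusters and carry no test, since the clusters were made from the same genes.

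By nucleus, 46.4% of the cluster 1 neurons had a UMI of Gad1 or Gad2, 15.99% one of Slc17a6 and 8.68% one of Slc17a7, at a median depth of 3115 UMIs. In oligodendrocytes, at a median depth of 947 UMIs, the shares were 8.205%, 1.80% and 5.57%. GABA markers without glutamate markers were found in 40.2% of the cluster 1 neurons, glutamate markers without GABA markers in 16.3%, both kinds in 6.17% and neither in 37.3%. The nuclei with neither kind were shallower, with a median of 2411 UMIs, so lack of a UMI does not place a nucleus outside both kinds.

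RNA of other cells was present in these libraries. Ttr, which choroid plexus makes in very large amounts, had a UMI in 75.4% of cluster 1 neurons and in 76.8% of oligodendrocytes. The summed CPM of 5 oligodendrocyte markers was 235 to 256 in ATV:BACE1, 235 to 303 in nonTV:Malat1, 178 to 365 in OTV:Malat1 and 204 to 293 in Malat1 ASO libraries. The 4 choroid plexus markers summed to 346 to 712 CPM in ATV:BACE1, 478 to 663 in nonTV:Malat1, 357 to 421 in OTV:Malat1 and 434 to 487 in Malat1 ASO. The 10 GABAergic markers summed to 2117 to 2489 CPM in ATV:BACE1, 1975 to 2045 in nonTV:Malat1, 2099 to 2461 in OTV:Malat1 and 2093 to 2748 in Malat1 ASO, so the nonTV:Malat1 libraries were the lowest. No marker of these lists was at 0 in a group.

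Clustering these nuclei again without Malat1 gave 23 sub-clusters. A sub-cluster was called by a cell type, with "-like", where 3 or more markers of that type were at least 2-fold above the other cluster 1 neurons and at 20 CPM or more, a threshold set after the values were seen. Sub-clusters 3 (1885 nuclei) and 8 (910 nuclei) were thalamic-like, with Tcf7l2, Prkcd, Lef1 and Slc17a6, and sub-cluster 3 also had 3 dentate granule markers (Prox1, Glis3 and Stxbp6). Sub-clusters 4 (1327 nuclei; Gad1, Lhx6, Pvalb), 9 (883 nuclei; Gad1, Gad2, Dlx6os1, Adarb2, Lamp5), 14 (532 nuclei; Dlx6os1, Adarb2, Vip) and 15 (478 nuclei; Gad1, Gad2, Pvalb) were GABAergic-like.

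The other large sub-clusters are given by number and leading genes. Of them, 11 and 13 met the threshold for oligodendrocytes among other lists, and the rest for no list. The threshold was relative to the other cluster 1 neurons, so lack of a name does not place a sub-cluster outside a type. Sub-clusters 5, 6, 7 and 10 had Gad1 at 143 to 198 CPM and Slc17a6 at 6.29 to 10.1 CPM. Their Gad2, at 146 to 232 CPM, was about as high as or above the 154 CPM of sub-cluster 4. Sub-cluster 1, the largest with 5955 nuclei, was led by genes that included Sim1, Calcr and Esr1. Sub-cluster 2 (2305 nuclei) had Glra3 and Gda, sub-cluster 5 (1191 nuclei) had Nos1, Sox6 and Lhx6, and sub-cluster 6 (1105 nuclei) had Tshz1 and Meis2. Sub-cluster 7 (960 nuclei) had Prdm16 and Ano2, sub-cluster 10 (783 nuclei) Gbx1 and Lhx8, and sub-cluster 12 (580 nuclei) Nwd2 and Robo3. Sub-cluster 11 was shallow, with a median of 666 UMIs and mitochondrial and glial genes in the lead, and sub-cluster 13 held 62.3% called doublets with oligodendrocyte genes. Both were kept in the sums over all cluster 1 neurons. Among the small sub-clusters, 16 (373 nuclei) was glutamatergic-like, 18 (325 nuclei) GABAergic-like, 20 (238 nuclei) striatal medium spiny-like and 21 (195 nuclei) thalamic-like. Sub-clusters 11 and 19 met the threshold for neuronal and for glial lists alike and are given by number.

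**Figure D1:**
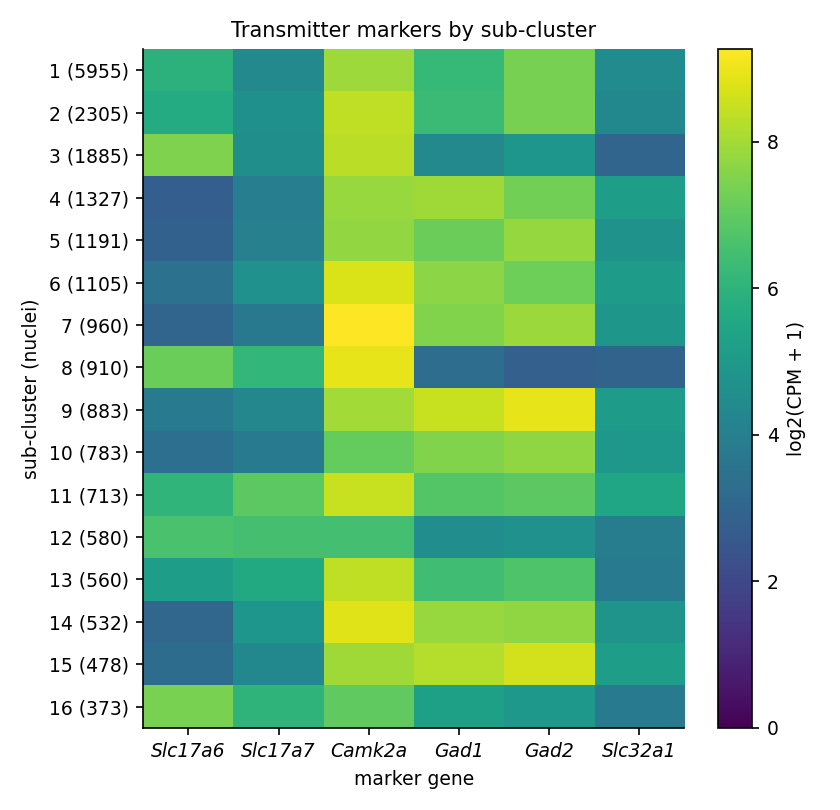
Transmitter marker genes (columns) in the 16 largest sub-clusters of the cluster 1 neurons (rows, with the number of nuclei), coloured by log2(CPM + 1) of the summed counts. Slc17a6 is high where Gad1 and Gad2 are low in sub-clusters 3 and 8, and the reverse holds in sub-clusters 4, 9 and 15. It also holds in 5, 6, 7, 10 and 14, with Gad1 at 143 to 226, Gad2 at 146 to 232 and Slc17a6 at 6.29 to 10.1 CPM.

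Malat1 was lower in the cluster 1 neurons of all OTV:Malat1 libraries than in those of every other library. Its share of all UMIs was 5.14%, 5.11% and 5.83% in ATV:BACE1 replicates 1, 4 and 5 (mean 5.36% ± 0.405, SD, n = 3). The shares were 3.42%, 2.90% and 3.71% in OTV:Malat1 (3.34% ± 0.408, n = 3). The OTV:Malat1 libraries did not overlap the control libraries. In nonTV:Malat1 the shares were 4.97%, 5.07% and 5.81% (5.28% ± 0.461, n = 3), and in Malat1 ASO replicates 1 and 5 they were 5.23% and 5.49% (5.36% ± 0.185, n = 2). Of these 5 libraries 3 lay within the control range, and nonTV:Malat1 replicates 1 and 4 lay just below it. Counts per library ranged from 220441 to 442356 Malat1 UMIs, so counting error was small beside the spread between libraries.

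Against ATV:BACE1, the mean log2 share in OTV:Malat1 was 37.9% lower on the linear scale, and by batch the difference was -33.5%, -43.3% and -36.4% in replicates 1, 4 and 5. By a two-sided exact permutation test p was 0.1, and 3 libraries against 3 cannot give less. The edgeR quasi-likelihood test with the replicate number (the batch) as a block gave a log2 change of -0.72 (SE 0.0954, Benjamini-Hochberg adjusted p = 0.0139), and Malat1 was the 1 gene called among 17056 tested (0.00586%). Without the block the log2 change was -0.72, with an unadjusted edgeR p of 0.000107 and an adjusted p of 1.00 over all genes tested. The call held in 4 of the 11 fits that left out 1 library, and was lost without ATV:BACE1 replicate 5, any nonTV:Malat1 library or any OTV:Malat1 library, where log2 changes over all 11 fits stayed between -0.78 and -0.64.

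Neither the ASO on the molecule without receptor binding nor the free ASO was accompanied by a called Malat1 change. nonTV:Malat1 differed from ATV:BACE1 by -0.04 on the log2 scale (SE 0.0948, edgeR adjusted p = 1.00). Its mean log2 share differed by -1.52% on the linear scale (exact permutation p = 0.5). Malat1 ASO differed by -0.03 (SE 0.110, edgeR adjusted p = 0.987), and its shares against the control of the same batch were +1.78% and -5.75% (exact permutation p = 1 over libraries, where 0.2 was the smallest possible). A p that misses the threshold does not show equal levels.

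OTV:Malat1 was also set against the other two ASO groups, and these comparisons share its libraries. Against nonTV:Malat1 the log2 change of Malat1 was -0.67 (SE 0.0953, edgeR adjusted p = 0.0310), with batch differences of -31.2%, -42.8% and -36.2% and an exact permutation p of 0.1, again the smallest possible. Malat1 was the 1 gene called (0.00586%). Without the block the log2 change was -0.67, with an unadjusted edgeR p of 0.000185 and an adjusted p of 1.00. The call was kept in 4 of the 11 fits without a library. It was lost without the same 7 libraries as against ATV:BACE1. By edgeR, 756 genes had an unadjusted p under 0.05. Against Malat1 ASO the log2 change was -0.69 (SE 0.108) and missed the threshold (edgeR adjusted p = 0.121, 0% of genes called), with batch differences of -34.7% and -32.5% and an exact permutation p of 0.2, the smallest for 3 libraries against 2. DESeq2 gave Malat1 in this last comparison an adjusted p of 6.9e-10 and called 1 gene in all, and 695 genes had an unadjusted p under 0.05 by edgeR. Without ATV:BACE1 replicate 1 or ATV:BACE1 replicate 4 the edgeR call was gained (adjusted p = 0.00079 and 0.0325).

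**Figure D2:**
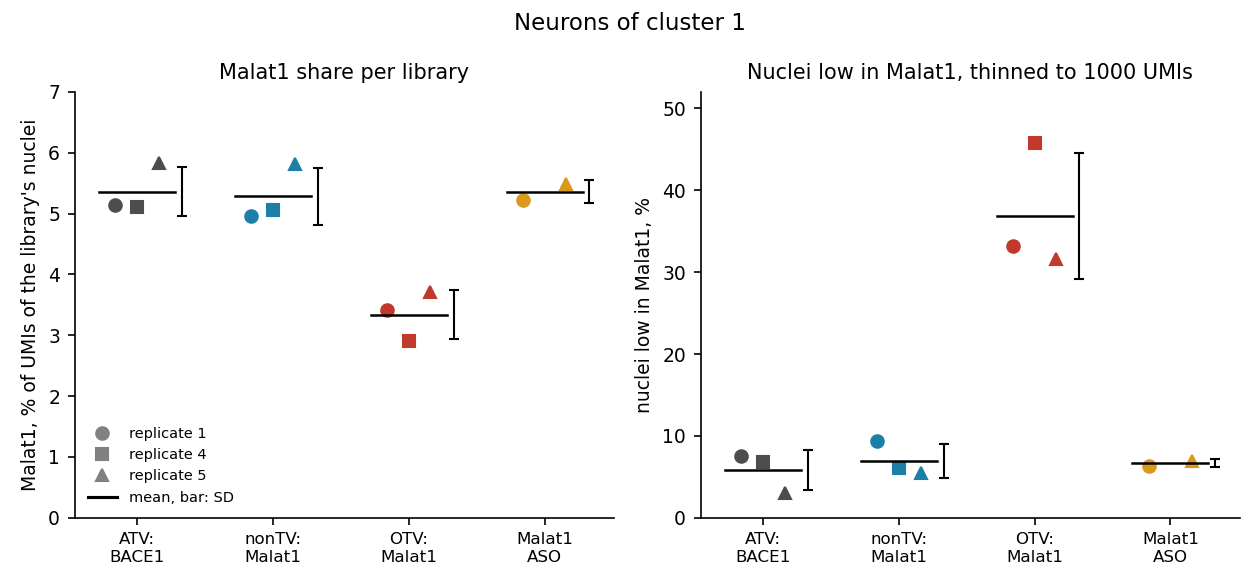
Left, Malat1 as a percent of UMIs in the cluster 1 neurons of each library (points, by replicate), with group mean and SD. Right, the percent of nuclei low in Malat1 after thinning each nucleus to 1000 UMIs. The 3 OTV:Malat1 libraries lie at 2.90% to 3.71% on the left, below every other library, and at 31.6% to 45.7% on the right, above every other library.

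The lower Malat1 was seen in the median nucleus. Nuclei of 1000 or more UMIs were reduced at random to 1000 UMIs each, which left out 29 to 283 shallower nuclei per library. The median nucleus then held 46, 47 and 53 Malat1 UMIs in ATV:BACE1 and 33, 28 and 35 in OTV:Malat1. It held 45, 46 and 52 in nonTV:Malat1, and 48 and 49 in Malat1 ASO. The median of each OTV:Malat1 library was below that of every other library, and in each OTV:Malat1 library the 5th percentile was 8 to 11 Malat1 UMIs. The part of free Malat1 RNA in these counts was not tested.

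A nucleus was counted as low in Malat1 at or under 26.3 of 1000 UMIs, the mean 5th percentile of the control libraries. The low share was 7.57%, 6.83% and 3.07% of nuclei in ATV:BACE1 and 33.2%, 45.7% and 31.6% in OTV:Malat1. It was 9.36%, 6.10% and 5.42% in nonTV:Malat1 and 6.31% and 6.98% in Malat1 ASO. Most OTV:Malat1 nuclei were thus above the low limit, although the low share was 31.0 percentage points higher (exact two-sided permutation p = 0.1, the smallest possible). Without thinning, the low shares were 34.5%, 45.3% and 30.5% in OTV:Malat1 and 2.89% to 7.37% in ATV:BACE1.

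Within cluster 1 the sub-clusters differed widely. Malat1 was tested in the 14 sub-clusters with at least 20 nuclei in every library. It fell by the edgeR test with the replicate block in 9 of 14 after OTV:Malat1 against ATV:BACE1, and its log2 change was below 0 in 14 of 14, with a median of -0.63. Over these 14 fits together, 11 of 98650 gene tests were called (0.0112%), and 9 of the 11 were Malat1. Without the block 7 sub-clusters were called, and leaving out each library in turn gave 7 to 10. A finer clustering called 9 of 15.

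The largest fall was in sub-cluster 4, GABAergic-like by Gad1, Lhx6 and Pvalb. Its Gad1, at 246 CPM, was above the 117 CPM of all cluster 1 neurons, and its Gad2, at 154 CPM, was near their 155 CPM. The naming threshold of 20 CPM lies under the 28.6 CPM of Pvalb in oligodendrocytes, and the kind of interneuron was not tested. The Malat1 share of sub-cluster 4 was 7.17%, 6.40% and 7.53% in ATV:BACE1 and 2.30%, 1.60% and 2.41% in OTV:Malat1. The shares were 6.61%, 6.27% and 7.60% in nonTV:Malat1 and 7.26% and 7.60% in Malat1 ASO. OTV:Malat1 was thus far below every other library, and its mean log2 share differed by -70.5% on the linear scale. The log2 change was -1.84 (SE 0.0704, edgeR adjusted p = 1.5e-23), and it was called in 11 of the 11 fits without a library. The median thinned nucleus held 63, 59 and 74 Malat1 UMIs of 1000 in ATV:BACE1 and 20, 13 and 19 in OTV:Malat1. Of the OTV:Malat1 nuclei of this sub-cluster 65.5% to 87.3% were low, whereas the 5th percentile in the control libraries, 37.3 to 41.9 UMIs, stood above the low limit.

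Sub-clusters 5, 9 and 10 fell by about 1 on the log2 scale. Over the 14 sub-clusters the level of Gad2 had rho = -0.18 with the Malat1 change, and sub-clusters 6, 7 and 14, with 146 to 232 CPM of Gad2, are given below among those that did not pass. Sub-cluster 9, GABAergic-like with Lamp5, had shares of 5.56%, 4.502% and 6.18% in ATV:BACE1 and 2.71%, 2.15% and 2.93% in OTV:Malat1 (log2 change -1.11, SE 0.106, edgeR adjusted p = 3.7e-10). Sub-cluster 5, with Sox6 and Lhx6, factors of interneurons from the medial ganglionic eminence, had 6.13%, 6.38% and 6.73% against 3.53%, 2.67% and 3.33% (-1.08, SE 0.0947, adjusted p = 1.8e-11). Sub-cluster 10, with Lhx8, a factor of basal forebrain neurons, had 5.70%, 5.72% and 6.29% against 3.12%, 2.60% and 3.33% (-1.01, SE 0.115, adjusted p = 4.9e-08). In each of these 3 the OTV:Malat1 libraries lay below all other libraries.

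The same held for sub-cluster 15 and the thalamic-like sub-clusters 3 and 8. Sub-cluster 15, GABAergic-like, had shares of 6.75%, 6.77% and 7.55% in ATV:BACE1 and 4.10%, 3.11% and 4.31% in OTV:Malat1 (log2 change -0.92, edgeR adjusted p = 8.0e-12). Sub-cluster 8, thalamic-like with Prkcd, a kinase of first-order thalamic relay neurons, had 5.91%, 5.95% and 7.07% against 3.83%, 3.002% and 3.19% (-0.96, SE 0.0766, adjusted p = 1.2e-10). Sub-cluster 3, the larger thalamic-like group, had 4.94%, 4.42% and 5.29% against 3.40%, 2.75% and 3.03% (-0.69, SE 0.0782, adjusted p = 3.7e-08). Sub-clusters 3, 4, 5, 8, 9, 10 and 15 were called in all 11 fits that left out 1 library.

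The largest sub-clusters changed less. Sub-cluster 1 had shares of 3.91%, 4.08% and 4.66% in ATV:BACE1 and 2.98%, 2.62% and 3.39% in OTV:Malat1 (log2 change -0.51, SE 0.0832, edgeR adjusted p = 0.0117). Sub-cluster 2 had 4.39%, 4.18% and 5.42% against 3.24%, 2.97% and 4.34% (-0.43, SE 0.0799, adjusted p = 0.0244), and 1 of its OTV:Malat1 libraries overlapped the controls. Without the block neither passed, with adjusted p values of 1.00, and each passed in 6 of the 11 fits without a library. The call of sub-cluster 1 was lost without nonTV:Malat1 replicate 1, ATV:BACE1 replicate 5 or any OTV:Malat1 library, and that of sub-cluster 2 without nonTV:Malat1 replicates 1 or 5, ATV:BACE1 replicate 5, or OTV:Malat1 replicates 1 or 4. Malat1 was also at its lowest control level in sub-cluster 1 among the 14.

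In 5 of the 14 sub-clusters the change of Malat1 did not pass the test. Sub-cluster 7 had shares of 4.89%, 5.53% and 5.91% in ATV:BACE1 and 4.85%, 4.23% and 5.59% in OTV:Malat1, and the libraries overlapped (log2 change -0.18, SE 0.0962, edgeR adjusted p = 0.994). Its low nuclei were 2.13% to 9.09% in ATV:BACE1 and 3.28% to 16.7% in OTV:Malat1. Sub-cluster 6 had 5.36%, 5.52% and 5.79% against 4.43%, 4.30% and 5.08% (-0.27, SE 0.0737, adjusted p = 0.571). Its libraries did not overlap, and the change against nonTV:Malat1 passed (-0.35, edgeR adjusted p = 0.0381). Sub-cluster 11 gave -0.14 (adjusted p = 1.00), sub-cluster 12 gave -0.58 (adjusted p = 0.211) and sub-cluster 14 gave -0.49 (adjusted p = 0.147). In sub-clusters 12 and 14 the OTV:Malat1 libraries lay below every other library. Sub-cluster 14 passed against nonTV:Malat1 (-0.53, edgeR adjusted p = 0.0452), and it passed against ATV:BACE1 without either Malat1 ASO library.

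**Figure D3:**
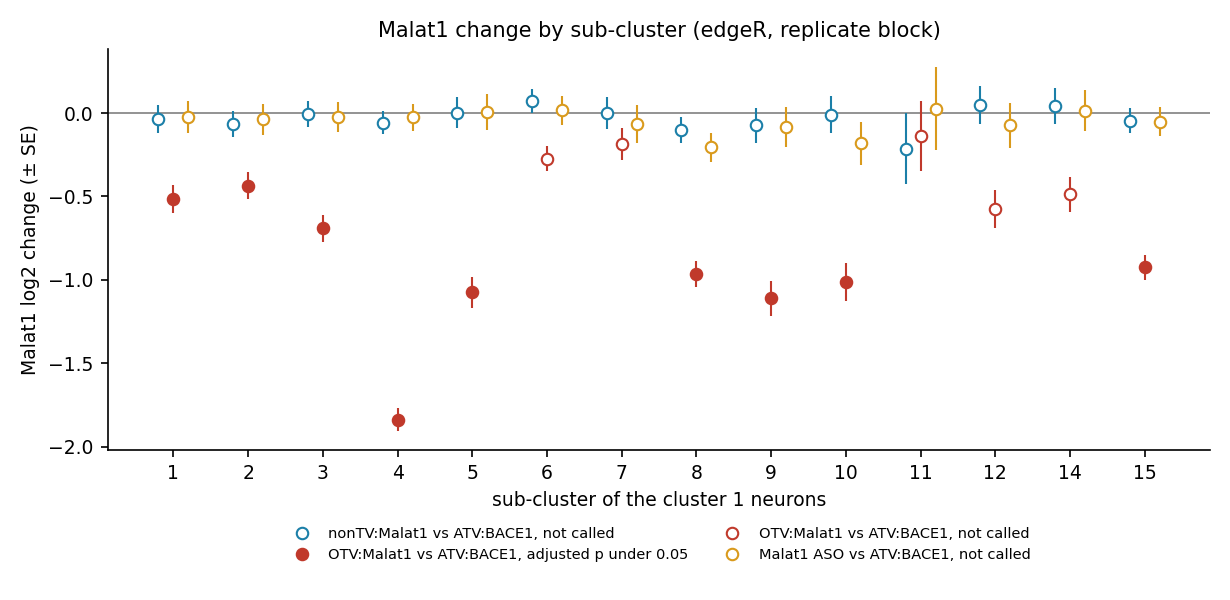
Malat1 log2 change against ATV:BACE1 (edgeR with replicate block, bars are ± SE) in the 14 tested sub-clusters, by dosing group; filled points have an adjusted p under 0.05. OTV:Malat1 points reach from -1.84 in sub-cluster 4 to -0.14 in sub-cluster 11, and no point of the other two groups is filled.

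Whether a sub-cluster differed from the other cluster 1 neurons was tested in the same libraries. The limma test on log2 CPM differences did not call Malat1 in any of the 14, and for sub-cluster 4 its unadjusted p was 1.84e-05 and its adjusted p 0.154. In the trial described under processing, limma found 4.55% of differences of 0.7 and 26.9% of differences of 1. The trial had the depth of all cluster 1 neurons and no difference under 0.7. It therefore does not tell how often limma misses smaller differences or those of shallower sub-clusters. An edgeR model over both sets of nuclei, with the library as a block, was added after the data were seen, and it called 9 of 98603 gene tests over the 14 fits (0.00913%). By it the Malat1 change was more negative in sub-cluster 4 (difference -1.21, adjusted p = 3.73e-19) than in the rest. It was less negative in sub-clusters 1 (+0.25, adjusted p = 0.0136), 2 (+0.32, adjusted p = 0.000748), 6 (+0.45, adjusted p = 7.92e-05) and 7 (+0.56, adjusted p = 0.00247). Without the replicate term the differences of sub-clusters 1 and 2 did not pass (adjusted p = 0.604 and 0.340). Sub-clusters 4 and 6 kept their difference in all 11 fits without a library, 2 and 7 in 8 and 1 in 6. The difference of sub-cluster 1 was lost without ATV:BACE1 replicates 1 or 5 or any OTV:Malat1 library, that of sub-cluster 2 without ATV:BACE1 replicate 5 or OTV:Malat1 replicates 4 or 5, and that of sub-cluster 7 without ATV:BACE1 replicate 1 or OTV:Malat1 replicates 1 or 5.

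**Figure D4:**
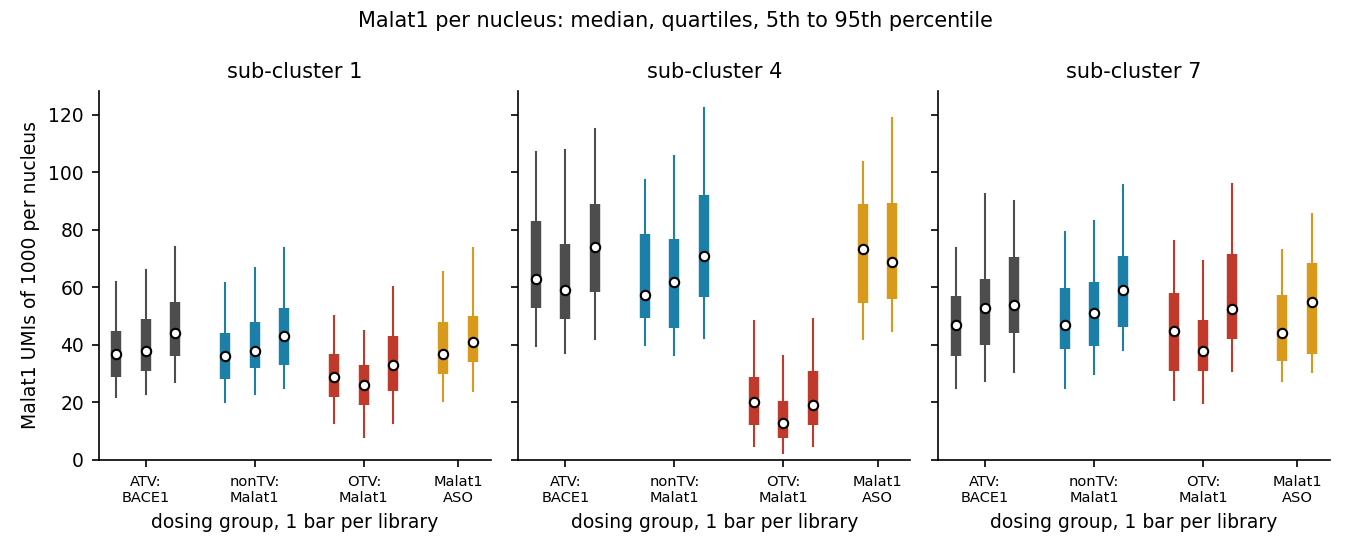
Malat1 UMIs per nucleus after thinning to 1000 UMIs, in sub-clusters 1, 4 and 7, with 1 bar per library: white points are medians, thick bars quartiles and thin lines the 5th to 95th percentile. In sub-cluster 4 the OTV:Malat1 medians are 13 to 20 against 59 to 74 in ATV:BACE1, and in sub-cluster 7 the groups overlap.

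The other two ASO groups showed no called Malat1 change in any of the 14 sub-clusters. Against ATV:BACE1 the log2 changes ranged from -0.21 to +0.07 in nonTV:Malat1 and from -0.21 to +0.03 in Malat1 ASO. OTV:Malat1 had a called fall in 10 of 14 sub-clusters against nonTV:Malat1 and in 7 of 14 against Malat1 ASO. Sub-cluster 4 gave -1.78 and -1.81 in these comparisons. All genes together, the percent of gene tests called against ATV:BACE1 was 0.00405% in nonTV:Malat1 and 0.0112% in Malat1 ASO. With OTV:Malat1 set against these groups it was 0.0203% (nonTV:Malat1) and 0.0101% (Malat1 ASO).

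Small sub-clusters with under 20 nuclei in a library were described without a test. Sub-cluster 22, with the cholinergic genes Chat and Slc5a7, had 126 nuclei, 5 to 25 per library. Its Malat1 share was 9.77% to 10.1% in ATV:BACE1 and 4.25% to 6.30% in OTV:Malat1, so the libraries did not overlap. Sub-cluster 19, led by genes that included Top2a and Sox4, genes of dividing and immature cells, and with Gad1 at 426 and Gad2 at 668 CPM, had 293 nuclei, and its share was 3.88% to 4.03% in ATV:BACE1 and 3.78% to 4.92% in OTV:Malat1. These ranges overlapped. In all, OTV:Malat1 lay below every other library in 5 of the 9 untested sub-clusters (13, 17, 18, 20 and 22). There the mean log2 share differed from that of ATV:BACE1 by -37.7%, -25.8%, -35.0%, -12.5% and -47.0% on the linear scale. It overlapped in 16, 19, 21 and 23, for example in sub-cluster 21, thalamic-like, with 3.62% to 4.48% in ATV:BACE1 and 2.93% to 4.49% in OTV:Malat1.

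Other properties of the 14 tested sub-clusters are given as descriptions, since the points share libraries. The Malat1 change went with the Malat1 share in the control (Pearson r = -0.73, Spearman rho = -0.63, and rho = -0.53 without sub-cluster 4), a relation that shares the control libraries with the change. It had rho = -0.55 with median UMIs per nucleus. Tfrc, the transferrin receptor gene of the mouse, gave rho = -0.12. Among the 14, Tfrc was highest in sub-cluster 12, at 196 CPM, and next highest in sub-cluster 4, at 57.2 CPM. The Malat1 change of sub-cluster 12 did not pass, although its OTV:Malat1 libraries lay below every other library, and that of sub-cluster 4 was the largest. Whether the Tfrc counts include RNA of the human knock-in sequence was not tested.

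The neurons of clusters 0, 2 and 9 were compared with cluster 1 within each library. Clusters 2 and 9 were known beforehand, from these same data, as those with the least and the largest neuronal Malat1 loss. A place of cluster 1 between them was thus set by the choice, and other neuronal clusters were not compared. OTV:Malat1 against ATV:BACE1 gave a Malat1 log2 change of -0.81 in cluster 0 (edgeR adjusted p = 0.00124, 0.00541% of genes called), -0.39 in cluster 2 (adjusted p = 0.238, 0.0121% called) and -1.14 in cluster 9 (adjusted p = 1.8e-12, 0.0746% called). Cluster 1, at -0.72, lay between clusters 2 and 0. Cluster 9 had 41.0% called doublets, with Mbp, a myelin gene of oligodendrocytes, at 970 CPM against 98.2 CPM in cluster 1. The change of cluster 9 alone was not fitted again without these doublets, and the part of oligodendrocyte RNA in it was not tested.

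The difference of the changes was then tested. The limma test gave +0.10 against cluster 0 (SE 0.0729, adjusted p = 1.00), -0.34 against cluster 2 (SE 0.0782, adjusted p = 0.885) and +0.41 against cluster 9 (SE 0.130, adjusted p = 0.773), and it called 0% of genes in each. The unadjusted p of Malat1 was 0.223, 0.0035 and 0.0123 in these limma fits. The edgeR model over both sets of nuclei, added after the data were seen, called 0.0178%, 0.00624% and 0.177% of genes in these 3 comparisons. By it the difference against cluster 2 was -0.34 (SE 0.0507, adjusted p = 0.00148), and that against cluster 9 was +0.42 (SE 0.0478, adjusted p = 2.7e-07). The difference against cluster 0 was +0.09 (SE 0.0554, adjusted p = 1.00). Without the replicate term the difference from cluster 2 lost its call (adjusted p = 1.00), as it did without ATV:BACE1 replicate 1 or OTV:Malat1 replicate 1 (adjusted p = 0.0878 and 0.0739); that from cluster 9 was kept in 11 of 11 fits without a library.

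Library by library, log2 Malat1 CPM in cluster 1 minus cluster 2 was -0.70, -0.74 and -0.64 in ATV:BACE1 and -1.12, -1.07 and -0.89 in OTV:Malat1. The nonTV:Malat1 libraries were at -0.81, -0.87 and -0.68, so every OTV:Malat1 library lay lowest. Against cluster 9 the values were -0.30, -0.30 and -0.29 in ATV:BACE1 and +0.15, +0.12 and +0.08 in OTV:Malat1. Cluster 1 thus held less Malat1 than cluster 9 in each control library and more in each OTV:Malat1 library.

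**Figure D5:**
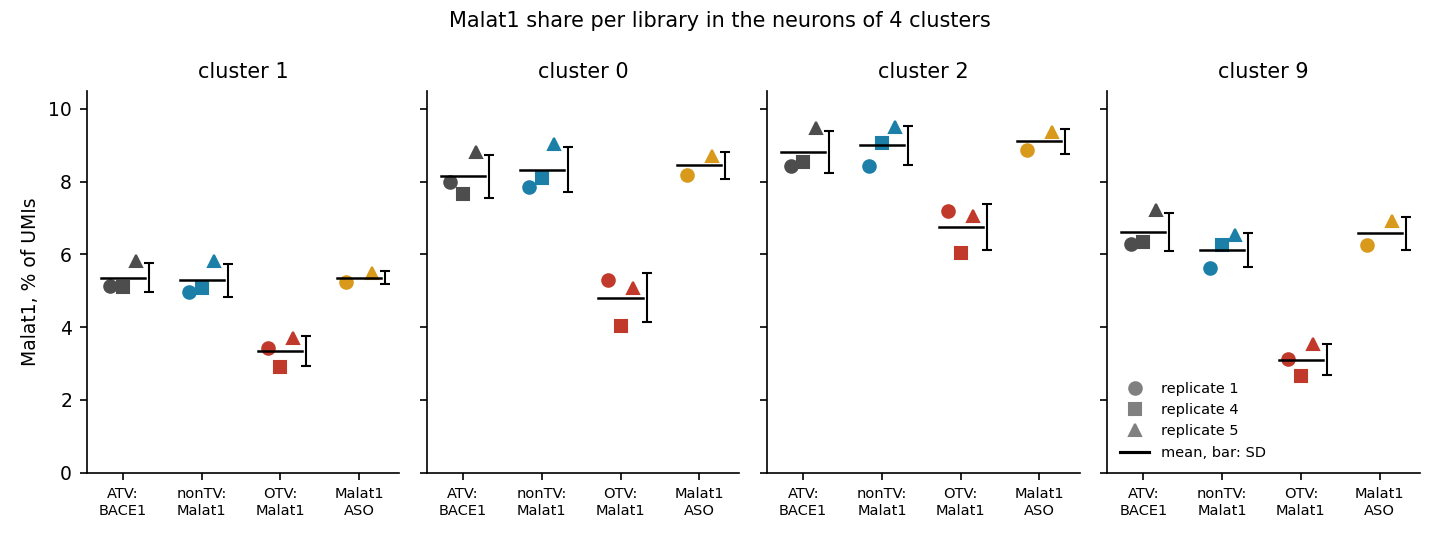
Malat1 as a percent of UMIs per library in the neurons of clusters 0, 1, 2 and 9, by dosing group, with mean and SD. In each cluster the OTV:Malat1 libraries lie lowest, and cluster 1 has the lowest control share of the 4 clusters, 5.11% to 5.83%.

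Apart from Malat1, few genes of the cluster 1 neurons passed the test. OTV:Malat1 against ATV:BACE1 called no gene but Malat1, while 547 of 17056 genes had an unadjusted p under 0.05. nonTV:Malat1 against ATV:BACE1 called 0 genes (0%) by edgeR and 0 by DESeq2, and 706 had an unadjusted p under 0.05. Malat1 ASO against ATV:BACE1 called 2 genes (0.0117%), Homer1 and Gm21887, both higher, and 974 had an unadjusted p under 0.05.

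Homer1 encodes a scaffold of the postsynaptic density whose short form is induced by activity. It stood at 119, 101 and 91.3 CPM in ATV:BACE1 and 163 and 128 CPM in Malat1 ASO (log2 change +0.50, SE 0.0772, edgeR adjusted p = 0.0477). It stood at 151, 129 and 110 CPM in nonTV:Malat1 and 135, 125 and 117 CPM in OTV:Malat1, where the changes did not pass. Each library of Malat1 ASO, nonTV:Malat1 and OTV:Malat1 was above the ATV:BACE1 library of its batch. The call for Malat1 ASO held in 1 of 11 fits without a library, the one without OTV:Malat1 replicate 5. The log2 change was +0.48 without the block (adjusted p = 1.00) and +0.31 with an equal makeup of sub-clusters (limma, adjusted p = 0.842), and DESeq2 gave an adjusted p of 0.0232. No sub-cluster fit called Homer1.

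Gm21887, a predicted gene, had 18, 4 and 12 UMIs in ATV:BACE1 and 135 and 41 UMIs in Malat1 ASO (log2 change +2.93, SE 0.422, edgeR adjusted p = 0.0374). It had 11, 24 and 10 UMIs in nonTV:Malat1 and 80, 21 and 16 in OTV:Malat1. Replicate 1 was the highest library of both Malat1 ASO and OTV:Malat1, and the call was lost by DESeq2 (adjusted p = 1.00) and without the block (edgeR adjusted p = 1.00). Leaving out ATV:BACE1 replicates 1 or 4 or Malat1 ASO replicate 1 ended it too, over fits that gave +2.42 to +3.45.

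Fixed gene lists of 289 genes in 15 groups showed no called gene after OTV:Malat1 against ATV:BACE1, beside 0.00586% of all genes called. That share was Malat1 alone, so lack of a call is not particular to the lists. Of the 289 list genes 271 were tested. By edgeR 14 of them (5.17%) had an unadjusted p under 0.05, beside 547 of all 17056 genes tested, and DESeq2 called 0 of the list genes. Malat1 is in nuclear speckles, bodies that hold splicing factors. The list of 35 splicing and speckle genes had a median log2 change of -0.0018, beside 0.0063 for all genes tested. The splicing regulator Rbfox1 stood at 6353 CPM in ATV:BACE1 and 6475 CPM in OTV:Malat1 (edgeR log2 change -0.0024 after TMM scaling), and the speckle protein gene Srrm2 at 375 and 402 CPM (+0.07). The 15 abundant nuclear non-coding RNAs had a median of 0.0036, with Meg3 at 10739 and 10640 CPM (-0.05) and Snhg11 at 6064 and 6288 CPM (+0.02).

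Genes near Malat1 and genes bound by or acting on oligonucleotides did not pass either, beside 0.00586% of all genes called. Of 15 tested genes near Malat1 on chromosome 19 the median was +0.11. Neat1, the non-coding RNA that builds paraspeckles and lies beside Malat1, was at 17.0 ± 5.06 CPM in ATV:BACE1 and 20.1 ± 12.8 in OTV:Malat1 (log2 change +0.14, edgeR adjusted p = 1.00). The 14 RNase H and oligonucleotide-binding genes had a median of 0.00052, and Sfpq, a paraspeckle protein, stood at 158 CPM in ATV:BACE1 and 165 CPM in OTV:Malat1.

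Lists tied to the receptor, to BACE1, to nucleic acid sensing and to stress had no call, as had no gene but Malat1 (0.00586% of all genes). The 15 tested iron handling genes had a median of -0.02, and Fth1, the ferritin heavy chain, was 249 ± 119 CPM in ATV:BACE1 and 295 ± 133 in OTV:Malat1. The 19 genes of BACE1 and amyloid precursor processing had a median of +0.02, with App at 512 and 520 CPM. The 14 tested genes of nucleic acid sensing and interferon had a median of +0.06, and Stat2, a transducer of interferon signals, stood at 21.8 ± 3.22 and 18.7 ± 0.635 CPM. The 19 tested stress and DNA damage genes had a median of +0.05, and the chaperone gene Hspa8 stood at 129 ± 43.7 and 142 ± 64.3 CPM.

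Neuronal and activity lists had no call either, beside 0.00586% of all genes called. The 24 glutamate receptor genes had a median of -0.0097, the 14 GABA receptor subunits -0.0052 and the 25 synapse genes -0.00063. The synaptic adhesion gene Nrxn3 stood at 5431 ± 511 CPM in ATV:BACE1 and 5378 ± 23.4 in OTV:Malat1, while the receptor gene Grm7 at 1795 ± 178 and 1779 ± 72.6. The 20 immediate-early genes, which respond first to neuronal activity, had a median of -0.10, with Junb at 30.7 ± 17.0 and 21.8 ± 9.004 CPM. The 16 tested late activity genes had +0.09, the 17 clock genes +0.02 and the 11 glucocorticoid genes +0.05. In the other 4 comparisons, which partly share libraries, the 15 lists had no called gene except Homer1. It was 1 of 16 late activity genes, for Malat1 ASO against ATV:BACE1, beside 0.0117% of all genes called there. Unadjusted edgeR p values under 0.05 numbered 15 to 23 of 271 in these 4 comparisons (5.54% to 8.49%), beside 695 to 974 of all 17056 genes tested. DESeq2 called Homer1 and no other list gene.

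Within sub-clusters, genes other than Malat1 made up 30 calls of 18 genes over the 5 comparisons and 14 fits, and they were looked at after their values were seen. Some served in the clustering, so their differences can also follow from how nuclei were assigned, which was not tested. OTV:Malat1 against ATV:BACE1 gave Erbb4, a neuregulin receptor of interneurons, at -0.70 and Zbtb20, a transcription factor, at +1.11, both in sub-cluster 7. In nonTV:Malat1 the 4 calls were Pcdh15, Ptprk, Rarb and Trpm3, all higher, each in 1 sub-cluster.

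Ttr and Gm47283 were each called in 6 sub-clusters of 1 comparison, and apart from Malat1 no other gene was called in more than 1 sub-cluster of a comparison. Ttr was lower in OTV:Malat1 than nonTV:Malat1 in 6 sub-clusters (1, 2, 3, 4, 6 and 9), with log2 changes of -0.86 to -0.66. Over all cluster 1 neurons Ttr stood at 653, 298 and 500 CPM in ATV:BACE1, 607, 427 and 592 in nonTV:Malat1, 314, 321 and 364 in OTV:Malat1 and 392.4 and 433 in Malat1 ASO. OTV:Malat1 was below every nonTV:Malat1 library and overlapped ATV:BACE1, and the cluster 1 change was -0.69 (SE 0.120, edgeR adjusted p = 0.204). In oligodendrocytes, which should lack it, Ttr was 1872, 1454 and 1851 CPM in nonTV:Malat1 and 1049, 1291 and 1071 in OTV:Malat1, thus also lower; the part of RNA from other cells in the neuronal value was not tested.

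Gm47283, a predicted gene, was higher in Malat1 ASO than ATV:BACE1 in 6 sub-clusters (2 to 7), with log2 changes of +1.54 to +2.12. In all cluster 1 neurons it stood at 43.9, 8.04 and 80.4 CPM in ATV:BACE1 and 224 and 105 CPM in Malat1 ASO, and the cluster 1 change did not pass (+1.79, edgeR adjusted p = 0.756). It stood at 46.3, 79.1 and 53.3 CPM in nonTV:Malat1 and 118, 79.5 and 69.1 CPM in OTV:Malat1, whose replicate 1 was above Malat1 ASO replicate 5. Its oligodendrocyte values were 35.2, 10.2 and 68.9 CPM in ATV:BACE1 and 204 and 87.1 CPM in Malat1 ASO. These 5 libraries thus stood in the same order in both cell classes.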

How the data were processed

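Nuclear RNA of 11 mouse brain libraries was measured. The deposited matrix holds UMI counts for 110304 nuclei and 25938 genes, unnormalized per the file headers and values, and each nucleus' sum equals the deposited total. The deposited cell table gives the mitochondrial share in percent, the prediction score as a fraction, cluster numbers, class names and the authors' doublet calls. The submitters' processing notes name Cell Ranger 5.0.0, Seurat 4 and the build mm10; the steps behind clusters and classes are not stated there. The group of each library came from its label, and nuclei were tied to libraries through the cell table.

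Counts of the cluster 1 neurons, called doublets included, were summed per library, 6346834 to 8803325 UMIs each. edgeR 4.0.16 (R 4.3.3) fitted all 11 libraries together: TMM scaling, filterByExpr by group, quasi-likelihood test, the replicate number as a block, and Benjamini-Hochberg adjustment over 17056 genes, with a threshold of 0.05. Differences between clusters used limma 3.58.1 on differences of log2 CPM within a library (prior count 2). Sub-clusters came from Leiden clustering (leidenalg 0.10.2, resolution 0.5, 2000 variable genes, 30 principal components, 20 neighbours) without Malat1, and were tested where every library held at least 20 nuclei. The edgeR, DESeq2 and limma tests were put through a trial on simulated data. There limma on differences found 4.55% of genes set 0.7 apart on the log2 scale and 26.9% of those set 1 apart. The edgeR model over both sets of nuclei found 48.5% and 94.0% of them. Each of these 2 tests found 100% of genes set 2 apart. Among genes left unchanged, limma called 5 and this edgeR model 9. The changed genes stood above 20 CPM, and the counts had the depth of all cluster 1 neurons and the same spread for every gene. Low Malat1 was counted on nuclei thinned to 1000 UMIs. Gene levels are CPM of the summed counts without TMM scaling; shares rest on the counts given, and no interval was needed beside the spread between libraries.

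The deposited batch matched the replicate number in all libraries. The number was used as a block because the rule for these nuclei asked for batch as a block. Over genes with a mean of at least 20 CPM, deviations from the group mean were correlated between libraries. The correlation was 0.521 to 0.840 in the 15 library pairs with the same number and -0.778 to 0.355 in the 30 pairs with different numbers. Deviations cancel out within a group, so part of this contrast follows from the calculation. Named genes are Malat1, Neat1, all called genes (at most 10 per comparison), from each list the 3 members with the highest mean CPM in ATV:BACE1 and any called member, of which examples are printed, and the cell type markers by level. The nuclei, lists and tests were chosen with earlier results of these data known. Alternatives covered DESeq2 1.42.0, no block, other scaling, filters on genes and nuclei, and leaving out each library. Fits of all class names, of an equal sub-cluster makeup, without sub-clusters 11 and 13, and by edgeR over pairs of nucleus sets were chosen after seeing the data.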

Additional observations from a re-analysis of the deposited data

Results flagged for a closer look

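A test of the difference itself, by an edgeR model over both sets of nuclei that was chosen after seeing the data, set the Malat1 change of the cluster 1 neurons (OTV:Malat1 against ATV:BACE1) apart from that of 2 other neuronal clusters. The log2 change was more negative than in cluster 2 (difference -0.34, adjusted p = 0.00148) and less negative than in cluster 9 (difference 0.42, adjusted p = 2.7e-07). These clusters were known beforehand as those with the least and the largest neuronal Malat1 loss, so a place between them was set by the choice. Cluster 9 also held 41.0% called doublets. The planned limma test called neither. The trial described under processing set no difference as small as these, so it does not tell how often limma misses them.

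Within cluster 1 the same model set 5 sub-clusters apart from the remaining nuclei. The difference in log2 change was -1.21 in sub-cluster 4 (adjusted p = 3.73e-19), 0.25 in sub-cluster 1 (adjusted p = 0.0136), 0.32 in sub-cluster 2 (adjusted p = 0.000748), 0.45 in sub-cluster 6 (adjusted p = 7.92e-05) and 0.56 in sub-cluster 7 (adjusted p = 0.00247). Limma did not call these 5. By edgeR, sub-clusters 1 and 2 did not pass without the replicate term. Of 11 fits without a library, sub-cluster 1 kept its call in 6, and sub-clusters 2 and 7 in 8 each.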

How the results depend on the processing

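Leaving out the replicate block, that is the pairing of libraries by number, left the Malat1 log2 change at -0.716 for OTV:Malat1 against ATV:BACE1 and -0.673 against nonTV:Malat1, with edgeR adjusted p = 1.00 in both. The unadjusted edgeR p was 0.000107 and 0.000185 there. The calls were also lost with limma on the mean share of each nucleus (-0.603 and -0.582, adjusted p = 0.714 and 0.797) and on an equal sub-cluster makeup (-0.650 and -0.627, adjusted p = 0.999 and 0.931). Unadjusted limma p was 0.000232 and 0.000293 for the mean share, and 8.5e-05 and 0.000109 for the equal makeup. Both calls were kept with DESeq2 (adjusted p = 5.5e-16 and 8.3e-14). By edgeR they were kept without TMM (adjusted p = 3.9e-07 and 6.3e-07) and with Malat1 left out of library totals (adjusted p = 0.00237 and 0.00501). Without the filter on low counts they were kept too (edgeR adjusted p = 3.5e-19 and 5.7e-18), and the SE against ATV:BACE1 became 0.0429. Against Malat1 ASO a call was gained with DESeq2 (-0.687, adjusted p = 6.9e-10), without TMM (-0.635, adjusted p = 8.4e-06), with Malat1 left out of library totals (-0.684, adjusted p = 0.0256) and without the filter on low counts (-0.687, adjusted p = 9.6e-16). The cause of these shifts was not tested.

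The number of genes called became 0 under no block, mean share and equal makeup in 3 comparisons: OTV:Malat1 against ATV:BACE1, OTV:Malat1 against nonTV:Malat1, and Malat1 ASO against ATV:BACE1. Without the filter, which tested more genes, it was 4, 12 and 9 in these comparisons, 12 for nonTV:Malat1 against ATV:BACE1 and 4 for OTV:Malat1 against Malat1 ASO. The Malat1 ASO count against ATV:BACE1 was 1 with all class names, with DESeq2 and with scores under 0.9 left out; that of OTV:Malat1 against Malat1 ASO was 1 with DESeq2, without TMM and with Malat1 out of totals. The 1 call in the fixed lists, Homer1, became 0 under no block, scores under 0.9 left out, all class names, mean share and equal makeup, and 3 without the filter. The edgeR difference of cluster 1 from cluster 2 was -0.339, and from cluster 9 it was 0.420 both with and without the replicate block. The cluster 2 difference was not called without the block, and it was called in 9 of 11 fits without a library.

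Leaving out 1 library at a time gave Malat1 changes of -0.777 to -0.636 for OTV:Malat1 against ATV:BACE1 (adjusted p = 0.000127 to 0.882), -0.728 to -0.594 against nonTV:Malat1 and -0.779 to -0.585 against Malat1 ASO. It gave -0.103 to 0.0153 for nonTV:Malat1, positive without ATV:BACE1 replicate 4, and -0.129 to 0.0659 for Malat1 ASO, positive without Malat1 ASO replicate 5. Genes called ranged from 0 to 2, 0 to 1 and 0 to 4 for OTV:Malat1, nonTV:Malat1 and Malat1 ASO against ATV:BACE1, 0 to 4 for OTV:Malat1 against nonTV:Malat1, 0 to 1 against Malat1 ASO and 0 to 1 in the lists. Cluster differences by limma were 0.0611 to 0.148 (cluster 0), -0.369 to -0.298 (cluster 2) and 0.365 to 0.434 (cluster 9), and by edgeR -0.362 to -0.296 (cluster 2) and 0.398 to 0.438 (cluster 9). The uncalled difference of sub-cluster 3 lay at -0.0538 to 0.0978 over these fits, at -0.0330 (limma) and -0.0538 (edgeR) without ATV:BACE1 replicate 4 and at -0.0127 (edgeR) without OTV:Malat1 replicate 1. Called sub-clusters numbered 7 to 10.

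The low share of nuclei was 25.2 to 35.8 percentage points higher in OTV:Malat1 under every threshold, thinning and doublet setting tried, 26.6 to 33.6 without 1 library, and 31.0 paired by batch (exact permutation p = 0.25, the smallest possible). With 2 or 3 libraries per group, permutation tests could not reach the threshold in any comparison. Batch cannot be told apart from sex and age.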
